A study of Mus musculus with 24 samples.

Results

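Interferon-stimulated genes are the genes that cells turn on when they sense an interferon. The 9 genes described here are Ifit1, Ifit3, Isg15, Irf7, Usp18, Oasl2, Bst2, Rtp4 and Ifi27. They were chosen by name, as widely used markers of the type I interferon response, from the 54532 genes of the deposited expression table, and all 9 were found there. Type I interferons bind a receptor made of IFNAR1 and IFNAR2, and the kinases JAK1 and TYK2 then pass the signal on. Activated transcription factors enter the nucleus with IRF9 and bind the interferon-stimulated response element in the promoters of target genes. In the brain, microglia, endothelial cells, astrocytes and neurons can all respond to interferon, and a low level of signalling is present without infection.

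Male wild-type C57Bl6 mice were infused for 2 weeks with angiotensin II (0.7 mg/kg/d), a peptide that raises blood pressure, or with saline vehicle. In each arm 6 mice also received amnion epithelial cells (AEC) and 6 did not. The 4 groups of 6 mice were therefore vehicle, angiotensin II, vehicle + AEC and angiotensin II + AEC. No group carried a transgene or a deletion, and the amnion epithelial cells were human. The table holds mouse genes, and transcripts of the human cells were not looked at. The infusion was by osmotic minipump, and the whole tissue of a brain hemisphere was sequenced as polyadenylated RNA, so cells of all types contribute to each value. Fewer cells of a type and less RNA per cell cannot be told apart in such samples.

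FPKM, the unit of the table, scales the fragments of each gene to its length and to the size of the library. The total recovered from the steps of the values was 16536449 to 25308700 reads per mouse. Total FPKM was 338334 to 348597 in 6 libraries and 277116 to 298301 in the remaining 18, a division that the labels do not mention. The 6 libraries of high total FPKM came from all groups: replicates 5 and 6 of vehicle and of angiotensin II + AEC, replicate 5 of angiotensin II, and replicate 6 of vehicle + AEC. Mitochondrial genes took 6.17% to 6.85% of the reads in these 6 libraries and 4.79% to 5.75% in the other 18. Neuron, astrocyte, oligodendrocyte and microglia markers were present in all mice. Results are given below with and without this difference between libraries.

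The promoters of these genes were read for the element that interferon signalling acts on. The core of the interferon-stimulated response element, GAAA and GAAA again after any 2 bases, was searched on both strands from 250 bases before to 50 bases after the start of each gene in RefSeq (GRCm38.p6). A window was given for 6 of the 9 genes (Isg15, Oasl2, Irf7, Bst2, Ifit3 and Ifit1). The core was present in 4 of these 6 windows and in 1131 of 32851 windows of all genes (3.44%), each window counted once. Overlapping matches were counted separately only in the numbers of matches per gene below. The stretches that hold the matches are shown because they mark the shared control element, with the matched bases in capitals, read on the strand of the gene. TTTC and TTTC around any 2 bases is the same core on the other strand.
Isg15 (chr4:156200860-156200911, minus strand): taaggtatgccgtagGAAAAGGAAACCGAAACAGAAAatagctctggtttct
Bst2 (chr8:71537572-71537617, minus strand): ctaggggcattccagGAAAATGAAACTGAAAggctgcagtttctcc
Ifit3 (chr19:34583358-34583431, plus strand): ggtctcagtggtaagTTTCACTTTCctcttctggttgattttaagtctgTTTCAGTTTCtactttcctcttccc
Ifit1 (chr19:34640770-34640828, plus strand): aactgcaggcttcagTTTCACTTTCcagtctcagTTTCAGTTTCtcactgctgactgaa

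The Isg15 promoter held 3 overlapping matches in 1 run, from 78 to 57 bases before the start. In Bst2 the 2 matches overlapped and lay 130 to 115 bases before the start. Ifit1 and Ifit3 are neighbours on chromosome 19, and each held 2 separate matches on the opposite strand, beginning 104 and 156 bases before the start. The windows of Oasl2 and Irf7 held no match to these letters. Counted by gene, in any window of the gene, the core was present in 28 of 58 other type I interferon-stimulated genes and in 10 of 11 interferon-induced GTPases. It was in 0 of 5 interferon receptors and in 2 of 8 signal transduction genes. The share over all windows given above was counted by window, so the units differ. A match is a description of the letters and does not show binding in these brains.

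All 9 genes were expressed in every mouse, at low to moderate levels. Each was read at least 11 times in each mouse, and the highest count was 1161 reads. Per length, Ifi27, which encodes a small hydrophobic interferon-induced protein of membranes, was the most abundant, with a mean of 23.9 FPKM over 24 mice. Bst2 (5.49 FPKM), Ifit3 (4.44 FPKM) and Isg15 (3.05 FPKM) followed. Rtp4 (1.25 FPKM), Ifit1 (1.01 FPKM), Irf7 (0.788 FPKM), Oasl2 (0.709 FPKM) and Usp18 (0.501 FPKM) were lower. The lowest Ifi27 value (18.6 FPKM) lay above the highest value of any other of the 9 genes (11.8 FPKM, Bst2), whereas the ranges of each neighbouring pair below Ifi27 overlapped.

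The interferons themselves were at the limit of detection at this depth. Of 21 interferon ligand genes, 12 were at 0 in all mice and none had more than 5 reads in any mouse, so that none was tested. All 6 receptor genes and all 9 signal transduction genes were detected, with Ifnar1 at a mean of 6.70 FPKM and Jak1 at 15.6 FPKM.

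Mice infused with angiotensin II were first compared with vehicle mice, for the effect of the infusion alone. Values of the 9 genes overlapped between the groups. In limma on log2(FPKM + 0.1), 0 of the 9 genes passed an adjusted p-value of 0.05 (0% of the 27286 genes tested) and 0 had an unadjusted p-value under 0.05 (2.21% of all genes tested). The log2 differences ran from -0.24 in Bst2 to 0.16 in Usp18 with a median of 0.01, against a median of 0.02 over all genes tested. The 95% intervals of the 9 differences reached from -0.91 to 0.66 at their widest. Comparisons that share a group of mice are not independent, and each is given with its own values.

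**Figure D1:**
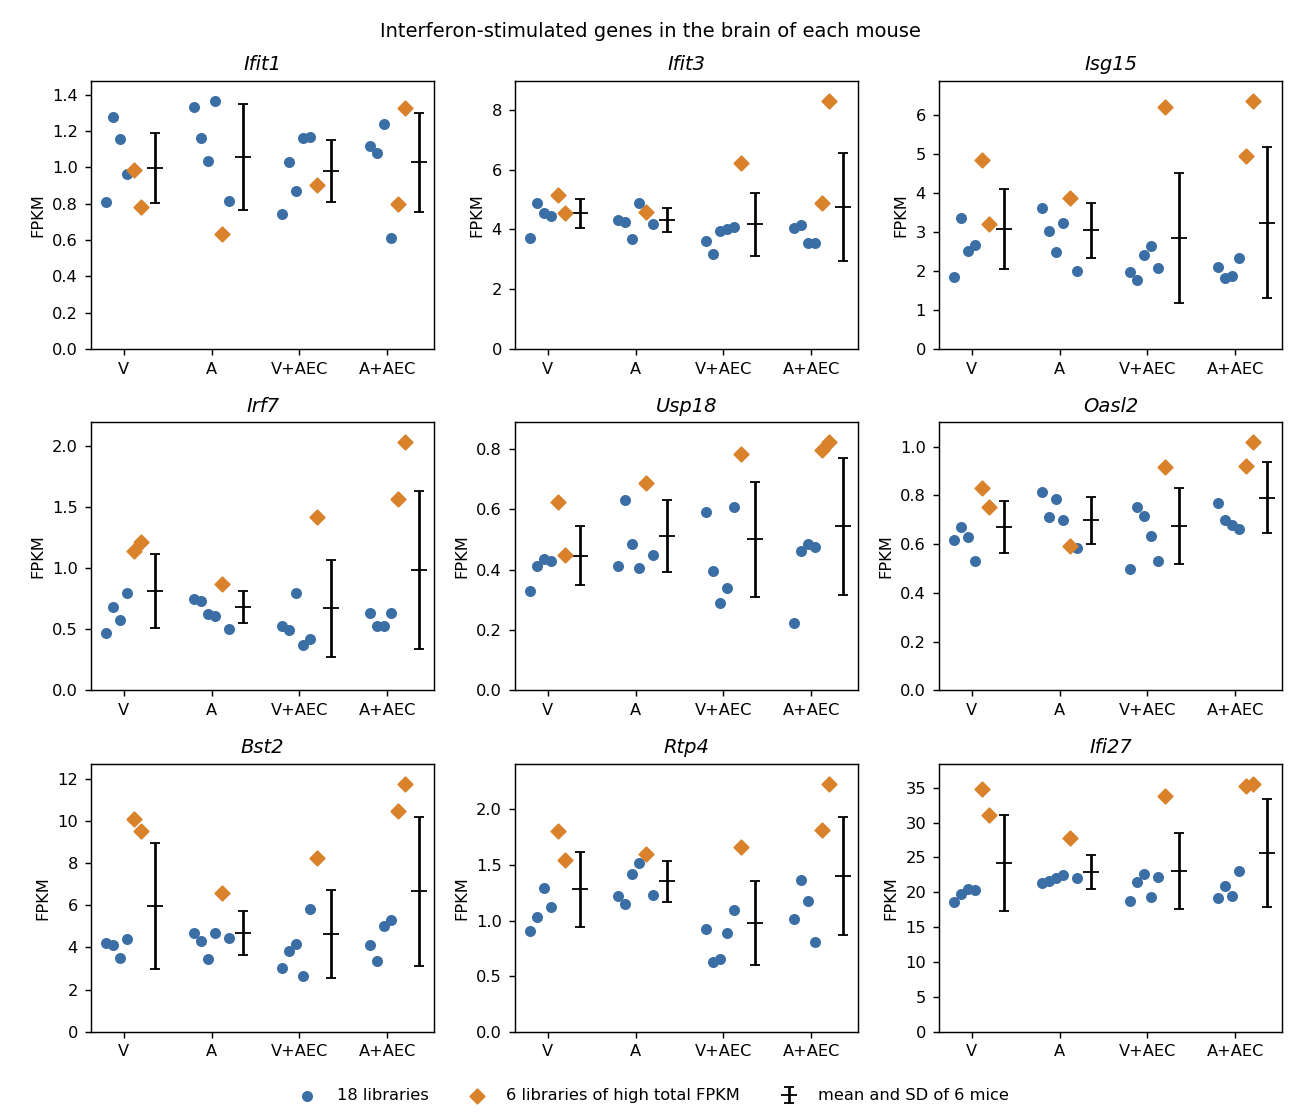
FPKM of each of the 9 genes (y axis) in each mouse, by group (x axis: V vehicle, A angiotensin II, each alone or with AEC; 6 mice per group). Circles are the 18 libraries, diamonds the 6 libraries of high total FPKM, and bars the mean and SD of 6 mice. In Ifi27 every diamond (27.8 to 35.6 FPKM) lies above every circle (18.6 to 23.1 FPKM), in all 4 groups.

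Among the regulators of the response, Irf7 encodes the transcription factor that amplifies interferon production (ENSMUSG00000025498, chromosome 7 of GRCm38, 141262706 to 141266481). Its lowest, median and highest values were 0.470, 0.740 and 1.22 FPKM with vehicle and 0.506, 0.681 and 0.872 FPKM with angiotensin II. They were 0.369, 0.510 and 1.42 FPKM with vehicle + AEC and 0.524, 0.635 and 2.03 FPKM with angiotensin II + AEC. The highest value of each group came from a library of high total FPKM, and all 4 groups overlapped. The length used for Irf7 (3776 bases) equals the whole span of the gene, which overlaps Phrf1 on the opposite strand.
Usp18 encodes the protease that removes ISG15 from proteins and that dampens signalling from the receptor (ENSMUSG00000030107, chromosome 6, 121245906 to 121270917). Its mean was 0.447 ± 0.0979 FPKM with vehicle, 0.511 ± 0.119 with angiotensin II, 0.501 ± 0.191 with vehicle + AEC and 0.544 ± 0.227 with angiotensin II + AEC (SD, n = 6). These means differed by less than the SD of the AEC groups. Isg15 encodes a ubiquitin-like protein that is attached to other proteins during the response (ENSMUSG00000035692, chromosome 4, 156199424 to 156200818). Its lowest, median and highest values were 1.85, 2.94 and 4.85 FPKM with vehicle and 1.99, 3.14 and 3.88 FPKM with angiotensin II. With AEC they were 1.78, 2.25 and 6.20 FPKM in vehicle mice and 1.83, 2.22 and 6.36 FPKM in mice infused with angiotensin II.

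Among the effectors, Ifit1 and Ifit3 encode proteins that bind foreign RNA or partner in that binding. Ifit1 (ENSMUSG00000034459, chromosome 19, 34640871 to 34650009) had means of 0.995 ± 0.192, 1.06 ± 0.291, 0.979 ± 0.170 and 1.03 ± 0.273 FPKM with vehicle, angiotensin II, vehicle + AEC and angiotensin II + AEC (SD, n = 6). The means differed from each other by less than the SD of any group. Ifit3 (ENSMUSG00000074896, chromosome 19, 34583531 to 34588731) had a median of 4.55 FPKM with vehicle, 4.28 with angiotensin II, 3.98 with vehicle + AEC and 4.11 with angiotensin II + AEC. Its highest values, 6.21 and 8.30 FPKM, were both in mice given AEC and both in libraries of high total FPKM. Ifit3 has a near copy, Ifit3b, with which reads could be shared. Oasl2 encodes a protein related to the 2'-5' oligoadenylate synthetases (ENSMUSG00000029561, chromosome 5, 114896936 to 114912234). It ranged from 0.500 to 1.02 FPKM, and its group means lay between 0.672 FPKM (vehicle) and 0.791 FPKM (angiotensin II + AEC).
Bst2 encodes tetherin, which holds budding virus particles at the cell surface (ENSMUSG00000046718, chromosome 8, 71534255 to 71537456). Its lowest, median and highest values were 3.51, 4.32 and 10.1 FPKM with vehicle and 3.47, 4.56 and 6.56 FPKM with angiotensin II. With AEC they were 2.64, 4.00 and 8.25 FPKM in vehicle mice and 3.34, 5.17 and 11.8 FPKM in mice infused with angiotensin II. The medians of the groups without AEC were close, and the tops of all groups were libraries of high total FPKM. Ifi27 (ENSMUSG00000064215, chromosome 12, 103434211 to 103440239) had medians of 20.4, 22.0, 21.9 and 22.0 FPKM with vehicle, angiotensin II, vehicle + AEC and angiotensin II + AEC.

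Whether AEC altered these genes was examined in mice infused with angiotensin II and in vehicle mice. In angiotensin II + AEC against angiotensin II, 0 of the 9 genes had an adjusted p-value under 0.05 (0% of all genes) and 0 an unadjusted p-value under 0.05 (2.54% of all genes). The log2 differences ran from -0.06 in Isg15 to 0.37 in Bst2, with a median of 0.07. In vehicle + AEC against vehicle, the counts were again 0 of 9 at either threshold (0% and 2.41% of all genes). Here 8 of the 9 differences were below 0, with a median of -0.14 and the lowest, -0.39, in Rtp4. For that Rtp4 difference a two-sided exact permutation of 6 against 6 mice gave p = 0.128, where the smallest p this design allows is 0.00216. The direction between vehicle + AEC and vehicle was less uniform once the library sets were considered. With the library set as a term in the fit, 3 of the 9 differences were above 0 (median -0.05). Over the 18 libraries 3 of the 9 were above 0 as well (median -0.11). None of the 9 genes had groups that did not overlap in any of the 4 comparisons of groups. The share of all genes without overlap was not counted for these comparisons, so this is no trait particular to the 9.

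Rtp4 was the 1 gene with an unadjusted p-value under 0.05 in a comparison of groups (2.66% of all genes), between angiotensin II + AEC and vehicle + AEC. Rtp4 encodes an interferon-induced chaperone of G protein-coupled receptors (ENSMUSG00000033355, chromosome 16, 23520291 to 23614222). Its lowest, median and highest values were 0.632, 0.907 and 1.66 FPKM with vehicle + AEC and 0.804, 1.27 and 2.23 FPKM with angiotensin II + AEC. They were 0.909, 1.21 and 1.80 FPKM with vehicle and 1.15, 1.32 and 1.60 FPKM with angiotensin II. The group given vehicle + AEC was the lowest of the 4, and it overlapped with each of the others.
The log2 difference between angiotensin II + AEC and vehicle + AEC was 0.47 (standard error 0.224), with an adjusted p = 1 in limma. Of the 6 mice given angiotensin II + AEC, 5 lay above the mean of the vehicle + AEC mice, with p = 0.128 by a two-sided exact permutation test. The unadjusted call was lost without vehicle + AEC replicate 1, 2, 3 or 4, or without angiotensin II + AEC replicate 2, 5 or 6 (log2 difference 0.33 to 0.47). Rtp4 shares its span with Masp1, on the other strand, and with Gm45338. Masp1 differed by 0.02 and Gm45338 by 0.25 on the log2 scale in the same comparison, both with an adjusted p = 1 in limma.
In the same comparison 5 of 5 neutrophil markers and 2 of 3 monocyte markers were higher at an unadjusted p-value under 0.05 (0 of either after adjustment in limma). Among the treatment comparisons, markers were examined only in this one and in the average effect of angiotensin II. The 5 neutrophil markers summed to 6.65 to 14.6 FPKM with vehicle + AEC and to 9.27 to 46.6 FPKM with angiotensin II + AEC. The 3 monocyte markers summed to 0.123 to 0.250 and to 0.227 to 0.667 FPKM, and no marker of either list was at 0 in all mice. The endothelial marker Pecam1 (0.18, 1 of 5) and the fibroblast marker Col1a1 (0.60, 1 of 4) were also higher by the same rule. Endothelial markers summed to 71.1 to 121 FPKM with vehicle + AEC and to 79.3 to 133 FPKM with angiotensin II + AEC, and fibroblast markers to 10.4 to 17.1 and to 11.4 to 19.1 FPKM. For the average effect of angiotensin II, 5 of 5 neutrophil markers, 1 of 3 monocyte markers and Pecam1 (0.13) were higher. Their part in the Rtp4 values was not tested.

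All 9 differences between angiotensin II + AEC and vehicle + AEC were above 0, from 0.04 in Ifit1 to 0.47 in Rtp4 with a median of 0.15, against a median of -0.01 over all genes tested. This direction was not stable: 7 of the 9 were above 0 with the library set as a term and 5 of 9 (median 0.03) over the 18 libraries. Of the 9, 5 kept their sign without angiotensin II + AEC replicate 6 and 7 without replicate 5, both libraries of high total FPKM. At an adjusted p-value 0 of the 9 were called (0% of all genes). Irf7 and Bst2 had differences of 0.43 and 0.47, and their 95% intervals reached from -0.23 to 1.09 and from -0.20 to 1.14. The average effect of angiotensin II over mice with and without AEC was above 0 in all 9 genes, with a median of 0.12, a highest value of 0.29 (Rtp4) and 0 unadjusted calls (2.39% of all genes). It kept its sign in 6 of the 9 genes without angiotensin II + AEC replicate 6 and in 7 without replicate 5. Over the 18 libraries it was above 0 in 8 of 9, with a median of 0.07. The average effect of AEC had a median of 0.00 and 0 unadjusted calls (2.44% of all genes). A test of whether angiotensin II acted differently in mice with and without AEC also gave 0 unadjusted calls (2.54% of all genes), with the largest interaction in Bst2 (0.71, standard error 0.455). The highest interaction of any of the 9 genes was 0.33 with the library set as a term and 0.14 over the 18 libraries. For the averages and the interaction, 0 of 9 were called after adjustment and so were 0% of all genes.

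**Figure D2:**
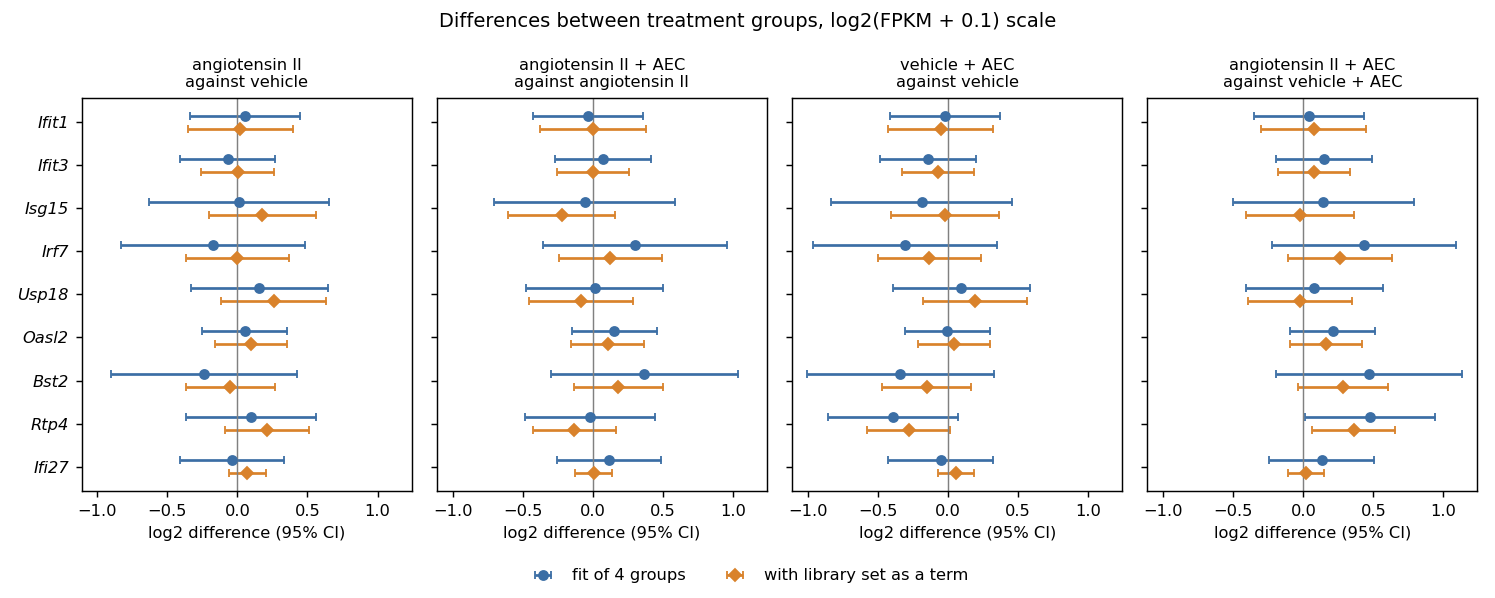
Log2 difference of each gene (y axis) in 4 comparisons of groups (panels), with its 95% confidence interval (x axis). Circles are from the fit of 4 groups and diamonds from the fit with the library set as a term, n = 6 mice per group. In Irf7 and Bst2 the differences move toward 0 with the set as a term, and Rtp4 in the right panel keeps an interval above 0 (0.06 to 0.66).

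More of the spread of these genes lay between the sets of libraries than between the treatment groups. The 4 groups held 0.845% (Ifit1) to 23.4% (Rtp4) of the spread of log2 values between mice, while the 2 sets of libraries held 8.76% (Ifit1) to 88.0% (Ifi27). With the set as a term beside the groups, 8 of the 9 genes were higher in the 6 libraries at an adjusted p-value under 0.05 in limma. Over all genes tested 22.3% were higher and 31% lower by the same rule. The sets were drawn from the total FPKM of the same table, so this comparison describes libraries and is no treatment effect.
Bst2 stood 1.12 higher on the log2 scale (standard error 0.127, adjusted p = 5.37e-08), Irf7 1.04 (0.147, adjusted p = 1.70e-06) and Isg15 1.0 (0.152, adjusted p = 4.86e-06). Rtp4 was 0.68, Ifi27 0.66, Usp18 0.60, Ifit3 0.43 and Oasl2 0.28 higher, with adjusted p-values from 1.21e-10 to 0.0258. Ifit1 was the exception, at -0.21 (standard error 0.149; adjusted p = 0.258). The median over all genes was -0.07. With values rescaled to TPM that median was -0.23, and on that scale Ifit1 was lower by a called -0.45 while Ifit3 (0.16) and Oasl2 (0.04) were no longer called. Oasl2 also lost its call without vehicle replicate 5, vehicle + AEC replicate 6 or angiotensin II + AEC replicate 6.

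In 4 of the 9 genes (Irf7, Bst2, Rtp4 and Ifi27) the lowest of the 6 libraries lay above the highest of the other 18, as did 11.2% of all genes tested. Ifi27 was at 27.8 to 35.6 FPKM in the 6 and 18.6 to 23.1 FPKM in the 18. Bst2 was at 6.56 to 11.8 against 2.64 to 5.82 FPKM. Irf7 was at 0.872 to 2.03 against 0.369 to 0.796 FPKM, and Rtp4 at 1.55 to 2.23 against 0.632 to 1.52 FPKM. Genes that overlap these did not show a call between the sets: Phrf1, which overlaps Irf7, differed by -0.02, and Masp1, which overlaps Rtp4, by 0.05. Ifit3b, the near copy of Ifit3, differed by -0.04 (adjusted p = 0.800 in limma).

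Gene length moved with the difference between the sets. Among genes with a mean of at least 0.3 FPKM, the median log2 difference was 0.35 in genes of 1001 to 2000 bases and -0.43 in genes longer than 6000 bases. Within their own length class, Irf7 lay at the 99.9th percentile, Bst2 at the 96.3rd, Oasl2 at the 94.7th, Rtp4 at the 94.6th and Isg15 at the 94.5th. Ifi27 (84.0th), Usp18 (89.6th) and Ifit3 (56.4th) lay lower, and Ifit1 was at the 18.3rd. Oasl2, with 6374 bases, was higher in the 6 libraries although the median of its length class was lower.

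**Figure D3:**
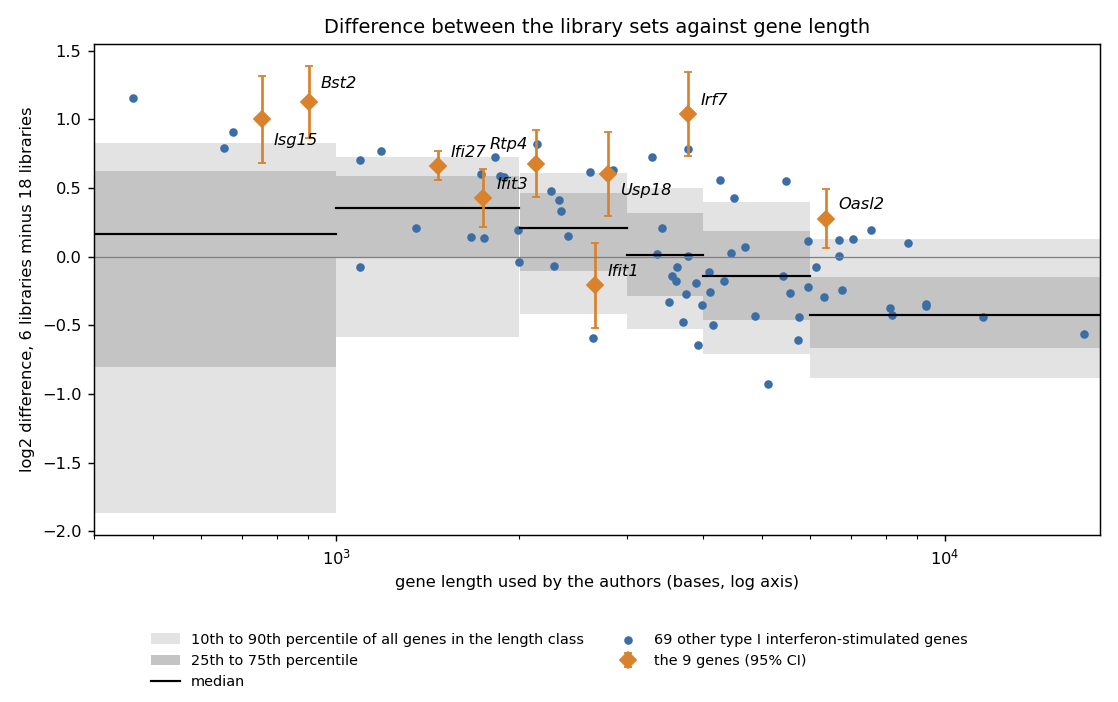
Log2 difference between the 6 libraries of high total FPKM and the other 18 (y axis) against the gene length used by the authors (x axis, log scale). Grey bands are percentiles and black lines medians of all genes of a length class, blue points are 69 other type I interferon-stimulated genes, and diamonds are the 9 genes with 95% confidence intervals. Ifit1 lies below 0 and the other 8 genes above it, while the class median is 0.35 at 1001 to 2000 bases and -0.43 above 6000 bases.

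Markers of several cell types and tissues also moved with the sets. All 5 erythroid markers (sum 123 to 204 FPKM in the 6 libraries, 32.9 to 189 in the 18) and all 4 meningeal fibroblast markers (17.1 to 20.6 against 10.4 to 13.6 FPKM) were higher at an adjusted p-value under 0.05. Endothelial markers summed to 111 to 133 against 71.1 to 95.8 FPKM, with 2 of 5 higher and 1 lower. Choroid plexus markers summed to 836 to 1122 against 353 to 770 FPKM, with 3 of 4 higher and 1 lower. Oligodendrocyte markers summed to 897 to 1118 against 741 to 893 FPKM, with 2 of 3 higher. T cell markers (1.67 to 2.84 against 0.686 to 2.06 FPKM, 2 of 4 higher) and B cell markers (0.372 to 0.972 against 0.179 to 0.790 FPKM, 1 of 3 higher) overlapped in sum. Neuron markers were higher in 2 and lower in 3 of 5, and astrocyte markers higher in 2 and lower in 2 of 4. Of the 5 microglia markers 2 were higher and 3 lower, and their sum overlapped (61.3 to 71.7 against 65.4 to 71.9 FPKM). No marker of these lists was at 0 in all mice. The part of these cell types, of gene length and of the mitochondrial share in the difference of the 9 genes was not tested.

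When the library sets were taken into account, the treatment differences of several genes changed. With the set as a term, Irf7 differed by 0.00 between angiotensin II and vehicle (-0.17 without the term) and Bst2 by -0.05 (-0.24 without it). The difference of Rtp4 between angiotensin II + AEC and vehicle + AEC was 0.36 (standard error 0.143, adjusted p = 0.9997 in limma) and passed the unadjusted threshold, as 4.01% of all genes did. The average effect of angiotensin II on Rtp4 was 0.29 (standard error 0.1002, adjusted p = 0.9998 in limma) and passed it too, as did 4.43% of all genes. No other of the 9 genes passed the unadjusted threshold in any comparison of treatments in that fit. The counts were 0 of 9 in angiotensin II against vehicle (3.46% of all genes), angiotensin II + AEC against angiotensin II (3.9%), vehicle + AEC against vehicle (3.54%), the average effect of AEC (4.11%) and the interaction (3.41%).
Over the 18 libraries alone, with 4, 5, 5 and 4 mice in the groups vehicle, angiotensin II, vehicle + AEC and angiotensin II + AEC, the treatment differences were computed again. The average effect of AEC was below 0 in all 9 genes (median -0.13). With the set as a term over all 24 mice, it was above 0 in 4 of the 9 (median -0.0035). Over the 18 libraries the average effect of AEC had an unadjusted p-value under 0.05 in Isg15 (-0.34), Rtp4 (-0.30) and Ifit3 (-0.18). That is 3 of 9 against 4.32% of all genes, and 0 were called after adjustment (lowest adjusted p = 0.9996 in limma). The 9 genes share the same mice, so such counts are not independent. Isg15 was at 2.03 ± 0.234 FPKM with angiotensin II + AEC and 2.87 ± 0.634 FPKM with angiotensin II in these libraries (SD, n = 4 and 5; adjusted p = 0.998 in limma), and it was the 1 gene of 9 past the unadjusted threshold there (4.52% of all genes). Between vehicle + AEC and vehicle, Ifit3 (-0.22) and Rtp4 (-0.35) passed the unadjusted threshold (4.16% of all genes). Between angiotensin II and vehicle, Ifi27 did (0.15; 3.83% of all genes), at 21.9 ± 0.463 against 19.8 ± 0.896 FPKM (SD, n = 5 and 4). The average effect of angiotensin II on Rtp4 was 0.30 (adjusted p = 0.9995 in limma) and passed the unadjusted threshold (3.84% of all genes), but between angiotensin II + AEC and vehicle + AEC 0 of the 9 genes passed (4.21% of all genes), as in the interaction (4.15%). The 6 libraries hold 1 or 2 mice of each group, too few for values of their own.

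The other genes of the pathway likewise gave no adjusted call between treatments. Of 6 receptor genes, 9 signal transduction genes, 12 sensing genes, 17 interferon-induced GTPases and 69 other type I interferon-stimulated genes tested, 0 passed an adjusted p-value of 0.05 in any of the 7 comparisons. At an unadjusted p-value, Mavs, the adaptor of RNA sensing, was at -0.23 on the log2 scale with angiotensin II + AEC against angiotensin II. Tgtp2, a GTPase with a mean of 0.163 FPKM, was at 0.44 with vehicle + AEC against vehicle. Mavs also passed for the average effect of AEC (-0.17). Between angiotensin II + AEC and vehicle + AEC, Ifi27l2b (0.97), Isg20 (0.54) and Uba7 (0.38) passed, which is 3 of 69 against 2.66% of all genes. Uba7 encodes the enzyme that activates ISG15 for attachment to proteins, and its interaction (0.42) also passed. The median of the 69 genes in that comparison was 0.09, with 49 above 0, while the median of all genes was -0.01. With the library set as a term, these 3 genes, Slfn9 (0.38) and Lgals9 (0.22) passed there, 5 of 69 against 4.01% of all genes, as did the GTPase Gbp5 (0.36), 1 of 17. Slfn9 had a mean of 0.0559 FPKM, Gbp5 0.318 and Lgals9 3.35. For the average effect of angiotensin II, Lgals9 (0.23), Eif2ak2 (0.17), Ifitm3 (0.15) and Ifit2 (0.14) passed in that fit, 4 of 69 against 4.43% of all genes. The other comparisons of that fit gave at most 1 call in any list, and 0 were called after adjustment.

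Between the library sets, genes of the wider pathway were called in both directions, at shares near those of all genes. Of the 69 other interferon-stimulated genes, 18 were higher and 19 lower in the 6 libraries at an adjusted p-value under 0.05 (22.3% and 31% of all genes), with a median difference of 0.01. Those higher had a median length of 2011 bases (463 to 5476) and those lower 5571 bases (2645 to 16888). The highest were Ifi27l2a (1.16), Ifitm3 (0.90), which encodes a protein that blocks the entry of viruses, Lgals9 (0.82), Ifitm2 (0.79) and Ly6e (0.78). The lowest were Eif2ak2 (-0.92), which encodes the kinase PKR, and Ifit2 (-0.64). Ifnar1 (-0.79), Jak1 (-0.70), Jak2 (-0.63) and Irf9 (-0.41) were lower, whereas Ifnar2 (0.15) was higher. Of the neighbouring Ifit genes, Ifit3 was thus higher (not called on the TPM scale), Ifit2 lower, Ifit1 not called (called lower on the TPM scale) and Ifit3b not called.

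How the 9 genes varied together from mouse to mouse was measured over the 18 libraries. Log2 values were taken as deviations from the group mean, and 21 of the 36 pairs had a positive Pearson r, with a median of 0.10 and a range of -0.57 to 0.61. A permutation test with 100000 resamples gave 7 pairs with an unadjusted p under 0.05 and 0 after adjustment over the 36 pairs (lowest adjusted p = 0.231). Spearman's rho gave the same counts, 7 and 0.
The highest r was that of Ifit3 and Isg15 (r = 0.61, permutation p = 0.00774, rho = 0.57, permutation p = 0.0147), and it was 0.42 without the 2 mice farthest from the median. Ifit1 correlated with Ifit3 (r = 0.52, permutation p = 0.0284, rho = 0.59, permutation p = 0.0118) at 0.54 without such mice. Usp18 and Oasl2 had the lowest r (-0.57, permutation p = 0.0144, rho = -0.60, permutation p = 0.00954). The adjusted p of these 3 pairs was 0.231 for r and 0.176 for rho. The number of pairs past the adjusted threshold was 1 without vehicle + AEC replicate 4 and 2 without angiotensin II + AEC replicate 4. No r between pairs of the 9 genes is given over all 24 mice, because the libraries fall into 2 clusters.

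**Figure D4:**
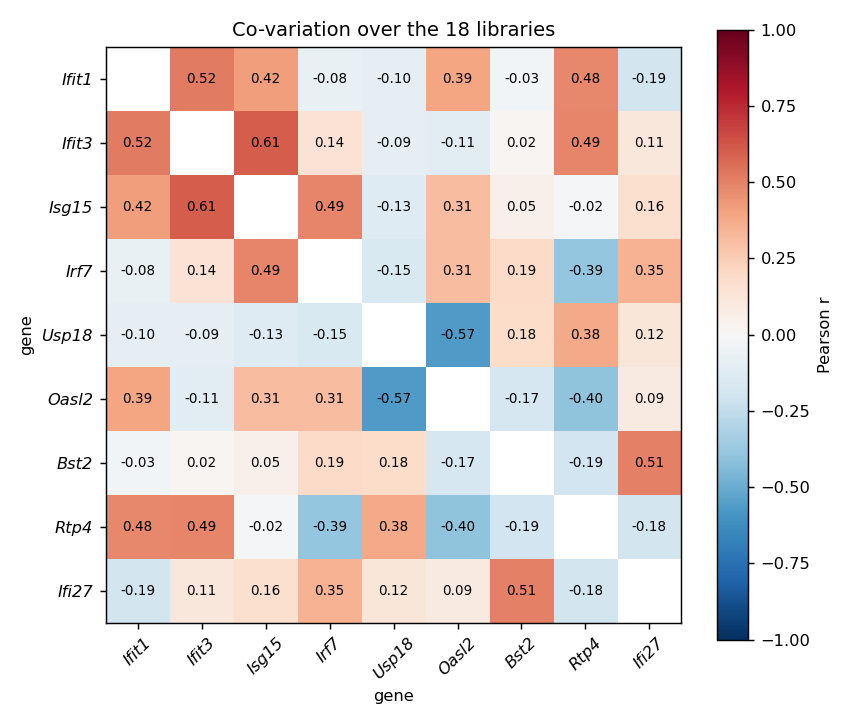
Pearson r between each pair of the 9 genes (both axes) over 18 libraries, on deviations of log2(FPKM + 0.1) from the group means. Colours run from blue (-1) to red (1), and the values are printed in the cells. Ifit1, Ifit3 and Isg15 have r of 0.42 to 0.61 with each other, and Usp18 and Oasl2 have -0.57.

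The genes most like the mean of the 9 genes were found by Pearson r over 24 mice, after removal of group means, among 13643 genes with a mean of at least 1 FPKM. They were Ptpn23, Nxph4, Zdhhc9, F11r, Lgals3bp, Tpt1-ps3, Mrpl44, Grn, Clip2 and Mrps6, with r of 0.913 to 0.928. The 24 points share the difference between library sets, in which all 10 of these genes were higher by 0.34 to 0.74 on the log2 scale. Over the 18 libraries, which were part of the data that chose these genes, their r was 0.29 (Lgals3bp) to 0.70 (Nxph4). Of the 10, Lgals3bp belongs to the list of other interferon-stimulated genes.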

How the data were processed

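Polyadenylated RNA of 24 brains was sequenced by the authors with an Illumina instrument, and they deposited 1 table of FPKM per gene and mouse, with gene lengths and GRCm38 coordinates. The submitters' processing notes name DESeq 1.10.1. How reads were aligned, counted and assigned to a strand is not given in the sources used here, so overlapping genes are uncertain. Mice were grouped by their labels. Whole reads were recovered from the steps of FPKM times length (100% of values whole within 0.05), which sets the precision, for counting error only.

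Genes above 0 in at least 6 mice were tested with limma 3.58.1 in R 4.3.3 on log2(FPKM + 0.1) (1 fit of 4 groups, trend, Benjamini-Hochberg adjustment). This scale understates changes of low genes. Single differences were also tested with two-sided exact permutations. The table was handled in Python 3.11.15 with pandas 2.3.3, numpy 2.4.6 and matplotlib 3.10.9, and the fit was tested on simulated data. The 9 genes, the pathway lists and the markers were chosen with earlier results of these data known. All 9 genes are named, and of other genes those with a call, or the extremes of a list. Genes outside the lists are the 10 with the highest correlation. Co-variation was planned over 24 mice and is given over 18 libraries because the libraries form 2 clusters.

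Replicate numbers were taken as pairing the mice of a comparison only if every pair had r of deviations over 0.1. This held in none of the 4 comparisons of groups, although 28 of 36 pairs over all groups passed (r -0.22 to 0.80) and all 6 of vehicle and angiotensin II + AEC, which were not compared, did. Pairs numbered 5 or 6 that joined libraries of different sets had r of -0.22 to -0.01. Each of the 4 comparisons held such a pair, and the deviations kept the difference between the sets. The rule therefore could not decide whether replicate numbers pair the mice. No library copied another (chi-square per gene of 3.19 to 96.1 within groups). Alternatives were pseudocounts of 1 and 0.01, no filter, a mean of at least 1 FPKM, the compared groups alone, median ratio scaling, a replicate block, each mouse left out, and, chosen after seeing the data, TPM scaling and voom on the recovered reads. Physiological data were not analysed here. Some genes of the pathway lists enter the counts but are not reported here one by one.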

Additional observations from a re-analysis of the deposited data

Results flagged for a closer look

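In 5 of the 36 sets of 6 values (9 genes in 4 groups), 1 mouse stood farther from the others than Dixon's 95% limit for 6 samples. Chance gives about 1 in 20 such sets where sets are independent and values come from 1 population. That did not hold here, because the 9 genes share the same mice and the libraries fall into 2 clusters. All 5 values came from the 6 libraries of high total FPKM, of which angiotensin II and vehicle + AEC each hold 1. Ifit3 was at 6.21 FPKM in vehicle + AEC replicate 6 (others 3.17 to 4.08) and at 8.30 FPKM in angiotensin II + AEC replicate 6 (others 3.53 to 4.87). Isg15 was at 6.20 FPKM in vehicle + AEC replicate 6 (others 1.78 to 2.63). Ifi27 was at 27.8 FPKM in angiotensin II replicate 5 (others 21.4 to 22.6) and at 33.8 FPKM in vehicle + AEC replicate 6 (others 18.7 to 22.7).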

How the results depend on the processing

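At an adjusted p-value, 0 of the 9 genes were called in all 7 treatment comparisons under every alternative run. At an unadjusted p-value, the count between angiotensin II + AEC and vehicle + AEC went from 1 to 0 with a pseudocount of 1, with median ratio scaling, over the 18 libraries and with only the compared groups, and ran from 0 to 2 with 1 mouse left out (2 without vehicle + AEC replicate 6, where Irf7 at 0.66 passed too). Over the 18 libraries it became 1 in angiotensin II against vehicle, 1 in angiotensin II + AEC against angiotensin II, 2 in vehicle + AEC against vehicle and 3 for the average effect of AEC. The average effect of angiotensin II gave 1 with the library set as a term, over the 18 libraries and on the TPM scale, and 0 to 1 with 1 mouse left out (1 without vehicle replicate 5, vehicle + AEC replicate 6 or angiotensin II + AEC replicate 4). In vehicle + AEC against vehicle it was 0 to 1 (1 without vehicle + AEC replicate 6, Rtp4 at -0.55).

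With the replicate number as a block, although not every same-numbered pair of mice varied together, the unadjusted count was 1 in vehicle + AEC against vehicle, 2 between angiotensin II + AEC and vehicle + AEC, 1 for the average effect of angiotensin II and 1 for the interaction, and the genes higher in the 6 libraries fell from 8 to 5. That count was also 5 with a mean of at least 1 FPKM, where fewer genes are tested, and 7 to 8 with 1 mouse left out. Pairs of genes past the adjusted threshold ranged from 0 to 2.

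Some differences that were not called changed sign. Rtp4 in angiotensin II + AEC against angiotensin II was 0.0036 with a pseudocount of 1 and -0.16 to 0.11 with 1 mouse left out. Irf7 in angiotensin II against vehicle (-0.17) was 0.00011 with the set as a term and 0.036 over the 18 libraries, and Bst2 there (-0.24) 0.078. Irf7 in angiotensin II + AEC against angiotensin II (0.30) was -0.13 over the 18 libraries. The cause was not tested. The number of all genes at an unadjusted p-value ranged from 93 (mean of at least 1 FPKM) to 1009 (18 libraries) in angiotensin II against vehicle, and from 118 to 1416 (replicate block) for the interaction. The planned tests of reads with negative binomial models were not run, because the deposited unit is FPKM. Usp18, with a median of 26 reads, Isg15 with 36.5 and Irf7 with 48 are limited most by counting error.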
